A study of Homo sapiens with 12 samples.

Results

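The genes described here drive or restrain the passage of a cell through the G1 phase towards DNA synthesis. They are the D-type cyclins CCND1 and CCND3, the kinases CDK4 and CDK6, the kinase inhibitor CDKN1B, the retinoblastoma protein gene RB1, the transcription factor E2F1 and the E-type cyclins CCNE1 and CCNE2. They were chosen by symbol, as probe sets whose platform annotation gives exactly 1 of these symbols. Of 10 genes named, 9 had such probe sets, 21 in all, and these 9 are part of the 10729 genes tested. The inhibitor CDKN2C, the remaining gene named, had no probe set under that symbol in the annotation used and is not analysed here.

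RNA was measured on Affymetrix arrays in HK-2 cells, an immortalized epithelial line from the proximal tubule of the human kidney. The 4 groups held 3 arrays each: Ota at a high dose for 72 h, control vehicle for 72 h, Ota at a high dose for 24 h and control vehicle for 24 h. Neither what Ota stands for nor its concentration is in the labels. All groups were seeded 24 h before treatment, were treated when nearly confluent and grew in a medium with EGF and insulin. Arrays within a group are named biological replicates, with no word on separate cultures, so a p-value here reflects only how far these samples spread, which may be technical. HK-2 is a single line immortalized with papillomavirus oncogenes, whose products are known to inactivate the p53 and retinoblastoma proteins, which limits it as a model of the G1 control of tubule cells. The series was made to find expression signatures of kidney toxicity.

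In textbook accounts, growth signals raise the D-type cyclins, which bind CDK4 or CDK6 and phosphorylate the retinoblastoma protein. That releases E2F factors, which switch on the E-type cyclins and many genes of DNA synthesis, and the E-type cyclins with CDK2 carry the cell into S phase. CDKN1B holds cyclin E-CDK2 in check, and cells that become crowded or lose growth signals usually leave the cycle in G1.

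At 72 h, 4 of the 9 genes rose in Ota-treated cells against control cells (CCND1, CDK6, CCNE1 and CCNE2), 2 fell (CDK4 and CDKN1B) and 3 did not pass the test (CCND3, RB1 and E2F1). Of all genes tested, 60.1% passed at that time, 24.8% as rises and 35.2% as falls. At 24 h, 1 of the 9 genes rose (CDK6), 4 fell (CCND3, CDK4, E2F1 and CCNE1) and 4 did not pass (CCND1, CDKN1B, RB1 and CCNE2). The share of all genes that passed was 61.3% at 24 h, 20.8% as rises and 40.5% as falls. Passing means an adjusted p under 0.05 in limma's moderated test, with Benjamini-Hochberg adjustment over all genes tested. Single values below are log2 GCRMA expression values for 1 probe set per gene, differences are on the same log2 scale, and levels of different genes cannot be set against each other.

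**Figure D1:**
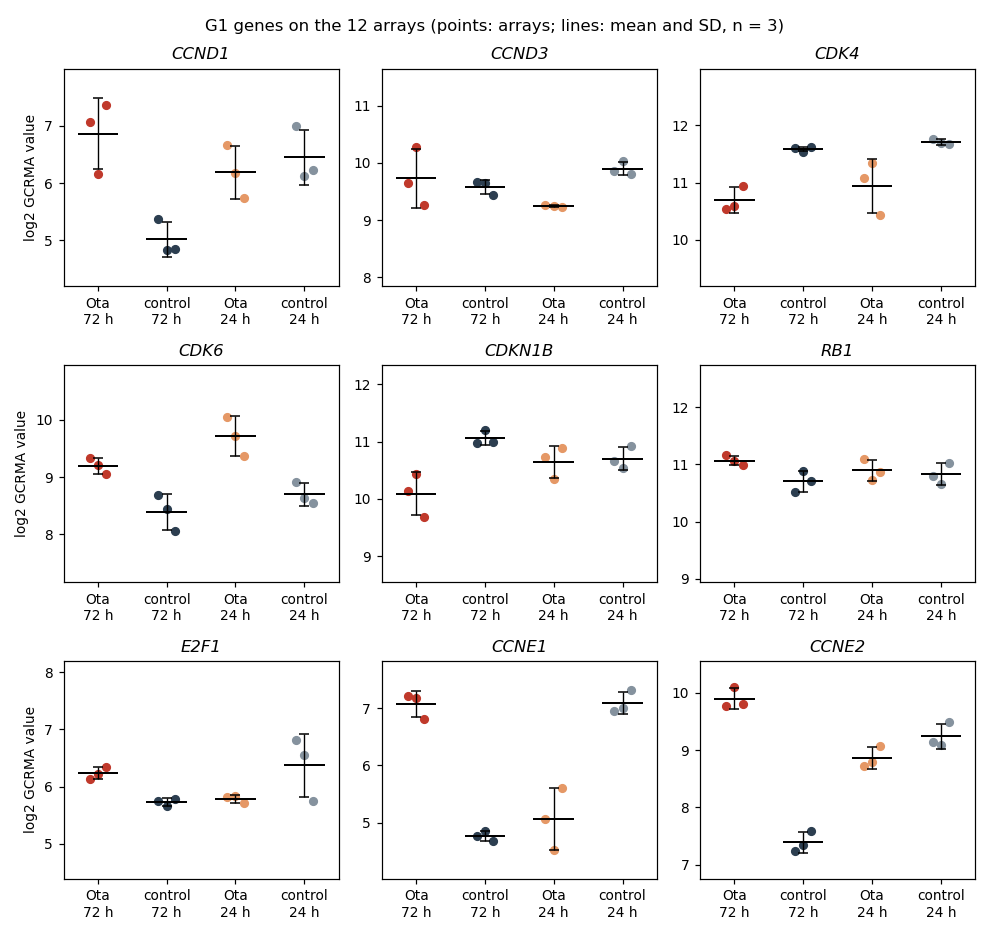
Log2 GCRMA value (vertical axis) of the 9 genes on each of the 12 arrays, by group (horizontal axis), with points for arrays and lines for the mean and SD (n = 3). CCNE1 and CCNE2 are at their lowest in control cells at 72 h, and CCNE1 is also low in Ota-treated cells at 24 h.

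The whole array set shifted with treatment, which bears on every value that follows. The median of the tested genes was 7.68 ± 0.05 on Ota arrays and 7.96 ± 0.02 on control arrays at 72 h (SD, n = 3 each), and 7.40 ± 0.16 on Ota arrays and 7.97 ± 0.05 on control arrays at 24 h. The poly-A spike-ins, added in equal amounts in the standard protocol, were brighter on Ota arrays by 0.89 at 72 h and by 1.85 at 24 h. Hybridization controls were brighter by 0.42 at 72 h and 0.93 at 24 h, and 18S ribosomal RNA probe sets by 1.34 and 1.58. The gap between 3′ and 5′ probe sets of ACTB, a sign of RNA quality, was wider on Ota arrays by 0.58 at 72 h and by 0.046 at 24 h. The same gap for GAPDH differed by only 0.033 at 72 h and 0.031 at 24 h. The exact permutation p was 0.1 for each of these differences (two-sided), the smallest that 3 arrays against 3 can give, with these exceptions. It was 0.9 for ACTB at 24 h, and 0.7 at 72 h and 0.3 at 24 h for GAPDH. The part of these signals in the G1 values, and in the scaling to spike-ins used below, was not tested. The median fitted change of all genes was -0.11 at 72 h and -0.24 at 24 h as deposited, 0.17 and 0.32 after centring each array on its median, and -1.0 and -2.09 after scaling to the spike-ins.

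Among cell type markers, 8 of 8 epithelial genes were measured, and 0 of 6 endothelial and 0 of 5 leukocyte genes were. An unmeasured gene was under the filter on low values or had no probe set with its symbol alone, and which was not recorded. Only 2 of 16 proximal tubule markers were measured, so little here bears on the labelled tubule identity. Those 2 fell with Ota at both times, with changes of -1.59 at 72 h and -2.53 at 24 h for PAX8 and of -3.52 and -2.22 for SLC4A4. Of the 8 epithelial genes 4 fell at each time and 1 rose at 24 h, where 35.2% of all genes fell at 72 h and 40.5% at 24 h. CDH1 changed by -3.18 at 72 h and by -0.29 at 24 h, which did not pass. KRT7 fell at 72 h (-1.52) and rose at 24 h (0.99), and KRT8 and EPCAM passed at neither time. The summed epithelial level (log2) was 14.37 to 15.05 on Ota arrays and 15.13 to 15.38 on control arrays at 72 h, and 14.13 to 14.24 on Ota arrays and 15.16 to 15.34 on control arrays at 24 h. Of 5 fibroblast genes 3 were measured, and LUM rose at both times (1.55 at 72 h, 0.69 at 24 h) while COL1A1 fell at 24 h (-1.94). Markers of other kidney cells were measured too, 2 of 4 for the collecting duct and 2 of 5 for podocytes. AQP3 of the collecting duct rose (2.02 at 72 h, 1.09 at 24 h) and SCNN1A fell (-2.12 and -1.32). The podocyte gene PTPRO, with group means of 11.08 to 12.62, rose at 72 h (0.65), and PODXL passed at neither time. The part of these marker changes in the G1 values was not tested. In RNA of whole cultures, fewer cells of a type and less RNA per cell cannot be told apart.

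CCND1, the D-type cyclin most closely tied to growth factor signalling, rose at 72 h. Its log2 values were 7.07, 6.16 and 7.36 in Ota-treated cells and 5.37, 4.83 and 4.85 in control cells at 72 h. At 24 h they were 6.66, 6.17 and 5.73 in Ota-treated cells and 7.00, 6.12 and 6.22 in control cells. The Ota arrays at 72 h all lay above their controls, while the groups at 24 h overlapped. The difference was 1.85 ± 0.35 (SE) at 72 h, a 3.60-fold rise with a limma adjusted p of 6.33e-04. At 24 h it was -0.26 ± 0.35 (limma adjusted p 0.533). The control cells at 72 h were low: the difference in CCND1 from control cells at 24 h was -1.43 ± 0.35 (limma adjusted p 0.0101). The effect of Ota was larger at 72 h than at 24 h by 2.11 ± 0.49 (limma adjusted p 0.00410), the difference between the effects at the 2 times.

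A second CCND1 probe set gave the same direction at 72 h and another picture at 24 h. It read 6.14, 5.28 and 5.98 in Ota-treated cells and 4.96, 4.79 and 4.98 in control cells at 72 h, and 6.61, 6.20 and 5.77 in Ota-treated cells and 5.29, 5.14 and 5.19 in control cells at 24 h. The Ota arrays lay above the controls at both times. In a fit over the 19401 probe sets with 1 symbol, this probe set rose by 0.89 ± 0.24 at 72 h (limma adjusted p 0.00743) and by 0.98 ± 0.24 at 24 h (limma adjusted p 0.00405). Averaged over both probe sets, the difference between the times was 1.01 and missed the threshold (limma adjusted p 0.0505).

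CCND3, another D-type cyclin, moved less. Its log2 values were 9.65, 10.28 and 9.26 in Ota-treated cells and 9.67, 9.64 and 9.43 in control cells at 72 h, and 9.27, 9.25 and 9.24 in Ota-treated cells and 9.86, 10.03 and 9.80 in control cells at 24 h. The groups overlapped at 72 h, where the 3 Ota arrays spread widely, and stood apart at 24 h. The difference was 0.15 ± 0.21 at 72 h (limma adjusted p 0.574), and CCND3 fell by 0.65 on the log2 scale at 24 h (limma adjusted p 0.0200). Without replicate 2 of the 24 h controls the fall at 24 h was -0.58 (limma adjusted p 0.0648), and after centring it was -0.087 (limma adjusted p 0.743). Scaling to the spike-ins turned the value at 72 h to -0.74 (limma adjusted p 0.0110). The difference between the times, 0.80 ± 0.30, passed narrowly (limma adjusted p 0.0459). It was lost in 11 of the 12 fits that left out 1 array, all but the fit without replicate 3 of Ota at 72 h.

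Of the kinases that D-type cyclins activate, CDK4 fell at both times. It read 10.54, 10.60 and 10.95 in Ota-treated cells and 11.61, 11.54 and 11.61 in control cells at 72 h. At 24 h the values were 11.08, 11.34 and 10.43 in Ota-treated cells and 11.76, 11.70 and 11.67 in control cells. Each Ota array lay below each control array of its time. CDK4 changed by -0.89 ± 0.21 at 72 h (limma adjusted p 0.00284) and by -0.76 ± 0.21 at 24 h (limma adjusted p 0.00741), and the 2 effects differed by -0.13 ± 0.29 (limma adjusted p 0.734). Centring each array on its median left -0.20 at 24 h, which did not pass.

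CDK6, which serves the same role as CDK4, went the other way. It read 9.33, 9.21 and 9.06 in Ota-treated cells and 8.68, 8.44 and 8.06 in control cells at 72 h, and 10.06, 9.72 and 9.37 in Ota-treated cells and 8.92, 8.63 and 8.54 in control cells at 24 h. Again the groups did not overlap at either time, now with Ota above control. The rise was 0.80 ± 0.21 at 72 h (limma adjusted p 0.00553) and 1.02 ± 0.21 at 24 h (limma adjusted p 0.00121). These calls belong to 1 of the 4 CDK6 probe sets that passed the filter on low values. A second one rose by 0.48 ± 0.19 at 72 h (limma adjusted p 0.0450) and changed by -0.03 ± 0.19 at 24 h, and the other 2 passed at neither time. Averaged over the 4 probe sets, CDK6 was higher by 0.43 at each time, and neither value passed (limma adjusted p 0.139 at both). Scaled to the spike-ins, CDK6 read -0.09 at 72 h and -0.83 at 24 h, the 24 h value a fall (limma adjusted p 0.00680).

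**Figure D2:**
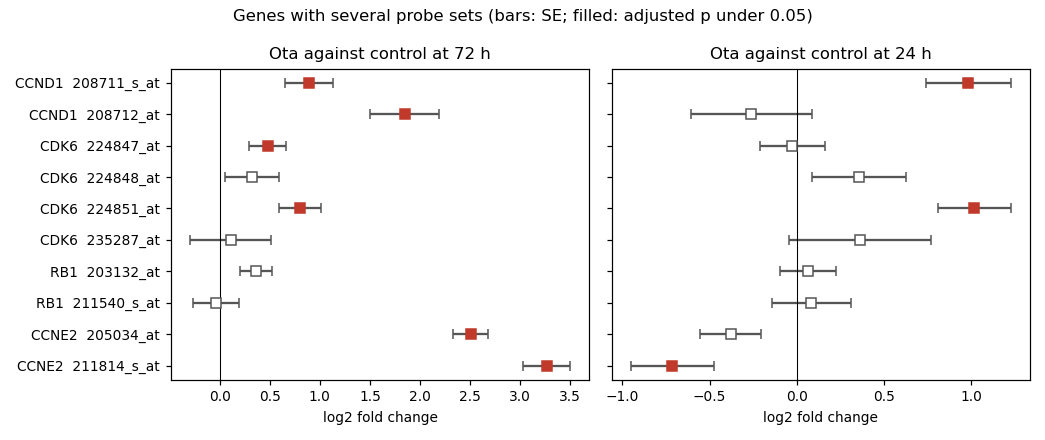
Log2 fold change (horizontal axis) of each probe set over the filter for the genes with several, for Ota against control at 72 h and 24 h, with bars for the SE and filled points for an adjusted p under 0.05. The 2 CCND1 probe sets differ at 24 h (0.98 and -0.26), and 1 of 4 CDK6 probe sets stands above the others there.

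CDKN1B, which encodes the inhibitor p27, fell at 72 h. Its log2 values were 10.14, 10.43 and 9.69 in Ota-treated cells and 10.98, 11.20 and 10.99 in control cells at 72 h, and 10.73, 10.34 and 10.88 in Ota-treated cells and 10.66, 10.53 and 10.92 in control cells at 24 h. The 72 h groups stood apart and the 24 h groups overlapped. It changed by -0.97 ± 0.21 at 72 h (limma adjusted p 0.00164) and by -0.05 ± 0.21 at 24 h (limma adjusted p 0.834). The effects at the 2 times differed by -0.91 ± 0.29 (limma adjusted p 0.0228), which missed the threshold without replicate 2 of the controls at 72 h (limma adjusted p 0.0545) or at 24 h (limma adjusted p 0.0530). The scaling of the arrays moved the 24 h value and the difference: centring gave 0.51 at 24 h (limma adjusted p 0.0274), and scaling to the spike-ins gave a difference between the times of 0.05. Among control cells, CDKN1B was higher at 72 h than at 24 h on every array, by 0.35 ± 0.21, and did not pass (limma adjusted p 0.248).

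RB1, the target of the D-type cyclin kinases, varied least of the 9 genes, with group means that spanned 0.36. It read 11.16, 11.05 and 10.99 in Ota-treated cells and 10.52, 10.89 and 10.72 in control cells at 72 h, and 11.10, 10.72 and 10.87 in Ota-treated cells and 10.80, 10.66 and 11.03 in control cells at 24 h. The arrays were apart at 72 h, with Ota above, and mixed at 24 h. The difference was 0.36 ± 0.16 at 72 h (limma adjusted p 0.0659) and 0.06 ± 0.16 at 24 h (limma adjusted p 0.744), so neither passed. Without replicate 2 of Ota at 24 h, which enters the shared estimate of the spread, the 72 h value passed (limma adjusted p 0.0457). Centring gave 0.64 at 72 h (limma adjusted p 0.00221) and 0.62 at 24 h (limma adjusted p 0.00234), both called, as with array weights (0.47 and 0.27). Scaling to the spike-ins gave -0.53 at 72 h, which did not pass, and a fall at 24 h (-1.79, limma adjusted p 1.01e-05). The second RB1 probe set differed by -0.04 ± 0.23 at 72 h and by 0.08 ± 0.23 at 24 h.

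E2F1, the first-described E2F factor and itself known to be switched on by E2F factors, fell at 24 h. Its promoter is shown with that of CCNE1, a classical E2F target, because these 2 genes stand at the step where the retinoblastoma protein acts. The sequences are RefSeq's (GRCh38.p14), read 5′ to 3′ on the gene's strand over the 250 bases before the annotated start, chr20:33686386-33686635 on the minus strand for E2F1 and chr19:29811741-29811990 on the plus strand for CCNE1. Capitals mark matches to E2F octamers (TTTCCCGC, TTTGGCGC, TTTCGCGC or TTTGCCGC) and to the GC box GGGCGG, on either strand.
E2F1: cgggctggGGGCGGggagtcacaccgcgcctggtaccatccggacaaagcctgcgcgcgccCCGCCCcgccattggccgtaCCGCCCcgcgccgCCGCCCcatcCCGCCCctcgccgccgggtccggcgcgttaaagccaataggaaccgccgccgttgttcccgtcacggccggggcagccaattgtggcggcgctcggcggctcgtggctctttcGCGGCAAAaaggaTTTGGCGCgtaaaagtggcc
CCNE1: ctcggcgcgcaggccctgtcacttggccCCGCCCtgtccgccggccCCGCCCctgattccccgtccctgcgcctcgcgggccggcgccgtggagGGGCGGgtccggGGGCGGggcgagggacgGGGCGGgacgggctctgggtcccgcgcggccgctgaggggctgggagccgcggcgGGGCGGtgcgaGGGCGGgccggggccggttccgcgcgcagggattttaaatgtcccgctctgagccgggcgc
The E2F1 window held 2 E2F octamers, GCGGCAAA and TTTGGCGC, 33 and 20 bases before the start, and 5 GC boxes, none of which overlapped an octamer. The CCNE1 window held 0 of these octamers and 7 GC boxes. Of 35116 RefSeq windows of the same length, 2.79% held an octamer and 42.6% a GC box. Windows were found for 7 of the 9 genes, 10 windows in all, of which 1 held an octamer and 7 a GC box. A match describes letters and is no proof of a bound site, and a missing match says only that these letters are not in this window.

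The log2 values of E2F1 were 6.14, 6.22 and 6.35 in Ota-treated cells and 5.76, 5.66 and 5.79 in control cells at 72 h, and 5.81, 5.83 and 5.71 in Ota-treated cells and 6.82, 6.56 and 5.76 in control cells at 24 h. At 72 h Ota lay above control on every array, and at 24 h the groups overlapped because 1 control array was as low as the Ota arrays. The difference was 0.51 ± 0.22 at 72 h and missed the threshold (limma adjusted p 0.0677), and E2F1 changed by -0.59 ± 0.22 at 24 h (limma adjusted p 0.0360). The fall at 24 h was lost in 5 of the 12 fits that left out 1 array, those without any 1 of the Ota arrays or without replicate 1 or 2 of the controls of that time (limma adjusted p 0.0516 to 0.163), and it read -0.03 after centring. The fall at 24 h also missed the threshold after quantile normalization (-0.10, limma adjusted p 0.737) and without the filter on low values (limma adjusted p 0.0598). So it did in a fit on the 6 arrays of 24 h alone (limma adjusted p 0.115). Of 25 alternatives run, 14 kept its sign and call. The value at 72 h passed without replicate 1 (limma adjusted p 0.0415) or replicate 3 (limma adjusted p 0.00689) of the 24 h controls. It also passed after quantile normalization (0.71, limma adjusted p 0.0233) or centring (0.79, limma adjusted p 0.0134). Array weights (limma adjusted p 0.0331) and a fit on the 6 arrays of that time alone (limma adjusted p 0.00570) called it too. With scaling to the spike-ins it turned to -0.38, which did not pass. The effect of Ota was more positive at 72 h by 1.10 ± 0.31 (limma adjusted p 0.0130), and this fell short after quantile normalization (0.81) or centring (0.82).

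The E-type cyclins changed most of the 9 genes at 72 h. CCNE1 read 7.22, 7.19 and 6.82 in Ota-treated cells and 4.76, 4.85 and 4.68 in control cells at 72 h, and 5.06, 4.53 and 5.60 in Ota-treated cells and 6.96, 7.00 and 7.32 in control cells at 24 h. Thus the Ota arrays were all above the controls at 72 h and all below them at 24 h. The rise at 72 h was 2.31 ± 0.24, or 4.95-fold (limma adjusted p 6.69e-06). At 24 h CCNE1 changed by -2.03 ± 0.24, a 4.08-fold fall (limma adjusted p 1.71e-05). The difference between these effects was 4.34 ± 0.34 (limma adjusted p 6.99e-06), the largest among the 9 genes.

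CCNE2, the second E-type cyclin, shared the rise. It read 9.77, 10.11 and 9.81 in Ota-treated cells and 7.23, 7.34 and 7.59 in control cells at 72 h, and 8.72, 8.78 and 9.08 in Ota-treated cells and 9.14, 9.09 and 9.49 in control cells at 24 h. The Ota arrays stood above their controls at 72 h and just below them at 24 h, where the highest Ota value, 9.08, nearly met the lowest control value, 9.09. CCNE2 rose by 2.51 ± 0.17 at 72 h, or 5.69-fold (limma adjusted p 3.21e-07), and differed by -0.38 ± 0.17 at 24 h (limma adjusted p 0.0725). The second CCNE2 probe set rose by 3.27 ± 0.24 at 72 h and fell by 0.71 on the log2 scale at 24 h (limma adjusted p 0.0212). Averaged over both, the 24 h value passed at -0.55 (limma adjusted p 0.0256), as the first probe set did without replicate 3 of Ota at 24 h (limma adjusted p 0.0345). The 24 h value was -0.24 after quantile normalization and 0.18 after centring, neither called, and -2.23 with scaling to the spike-ins (limma adjusted p 1.48e-06). The effects at the 2 times differed by 2.89 ± 0.24 (limma adjusted p 1.01e-05).

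**Figure D3:**
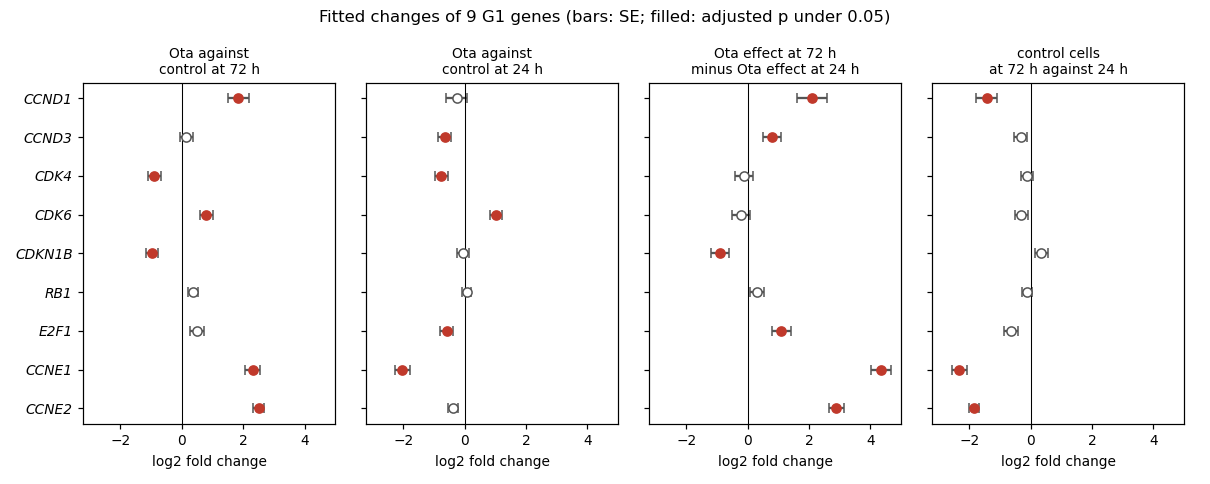
Fitted log2 change (horizontal axis) of the 9 genes in each comparison, with bars for the SE and filled points for an adjusted p under 0.05. CCNE1 is at 2.31 for Ota against control at 72 h and at -2.03 at 24 h, and CCNE1 and CCNE2 are the lowest points for control cells at 72 h against 24 h.

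Control cells themselves changed with time. In control cells at 72 h against control cells at 24 h, CCND1, CCNE1 and CCNE2 fell, none of the 9 rose, and 6 did not pass, where 25.5% of all genes passed, 12.2% as rises and 13.3% as falls. At an unadjusted p under 0.05 in limma 4 fell and 0 rose. The CCND1 fall belongs to the first probe set, and the second changed by -0.30 ± 0.24 (limma adjusted p 0.422). For 6 of the 9 genes the control arrays of the 2 times did not overlap, as for 53.5% of all genes. CCNE1 averaged 4.77 ± 0.08 in control cells at 72 h and 7.09 ± 0.20 in control cells at 24 h (SD, n = 3 each), a difference of -2.32 ± 0.24 (SE, limma adjusted p 4.34e-05). CCNE2 averaged 7.39 ± 0.19 in control cells at 72 h and 9.24 ± 0.22 in control cells at 24 h, a difference of -1.85 ± 0.17 (SE, limma adjusted p 2.37e-05). E2F1 was lower at 72 h by -0.64 ± 0.22 and missed the threshold (limma adjusted p 0.0527), which it passed without replicate 2 of Ota at 24 h (limma adjusted p 0.0467) or replicate 3 of the 24 h controls (limma adjusted p 0.00131). The comparisons with Ota at 72 h and between control cells share the 72 h control arrays, and their values are given side by side for that reason only.

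Across the 4 groups, CCNE1 was highest in control cells at 24 h, followed by Ota at 72 h, Ota at 24 h and control cells at 72 h. The first 2 groups of that order overlapped, with means of 7.07 for Ota at 72 h and 7.09 for control cells at 24 h, as did the last 2, with means of 5.06 for Ota at 24 h and 4.77 for control cells at 72 h. E2F1 had the same order, with overlap between the same neighbours. Unlike for CCNE1, its control cells at 24 h also overlapped the last 2 groups, through 1 array at 5.76. CCNE2 ran from Ota at 72 h through control cells at 24 h and Ota at 24 h to control cells at 72 h, and no neighbours overlapped. CCND1 had the order of CCNE2, but only its last step, from Ota at 24 h to control cells at 72 h, was free of overlap. CDK6 was higher in both Ota groups than in both control groups and CDK4 was lower in both, while CDKN1B was highest in control cells at 72 h and lowest in Ota at 72 h. The groups of RB1 overlapped at every step.

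Taking the time course of treatment as a whole, the effect of Ota was more positive at 72 h than at 24 h for 5 of the 9 genes (CCND1, CCND3, CCNE1, CCNE2 and E2F1), more negative for CDKN1B and not shown to differ for CDK4, CDK6 and RB1. Over all genes, 49.5% passed this test, 29.6% in the positive and 19.9% in the negative direction. The median change of the 9 genes was 0.51 at 72 h and -0.38 at 24 h, beside -0.11 and -0.24 over all genes tested. Arrays of the 2 treatments did not overlap for 8 of the 9 genes at 72 h and for 5 at 24 h, and for 73.7% and 65.7% of all genes. At the level of probe sets, 9 of the 15 over the filter passed at 72 h, where 58.8% of all did, and 7 of 15 at 24 h, where 60.5% did. The difference between the times passed for 6 of the 15, against 45.8% of all probe sets, and control cells over time gave 4 of 15, against 23.6%.

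The calls depend in part on how arrays are scaled. Scaled to the spike-ins, all 9 genes fell at 24 h, as did 10035 of the 10729 genes tested. At 72 h 3 rose and 3 fell with that scaling, where 7273 of all genes passed. Centred on the median of each array, 3 rose and 1 fell at 24 h, and 6 rose and 2 fell at 72 h. With centring, 7522 of all genes passed at 24 h and 6792 at 72 h. The rises of CCND1, CCNE1 and CCNE2 at 72 h and the fall of CCNE1 at 24 h held under each of the 25 alternatives run, single arrays left out included. Over those alternatives the change of CCNE1 at 72 h lay between 1.42 and 2.59, that of CCNE2 between 1.62 and 2.89 and that of CCND1 between 0.96 and 2.20, while CCNE1 at 24 h lay between -3.88 and -1.47. Among all genes called, rises made up 41.3% at 72 h and 34.0% at 24 h as deposited, 56.1% and 61.9% after centring, and 7.63% and 1.49% after scaling to the spike-ins.

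**Figure D4:**
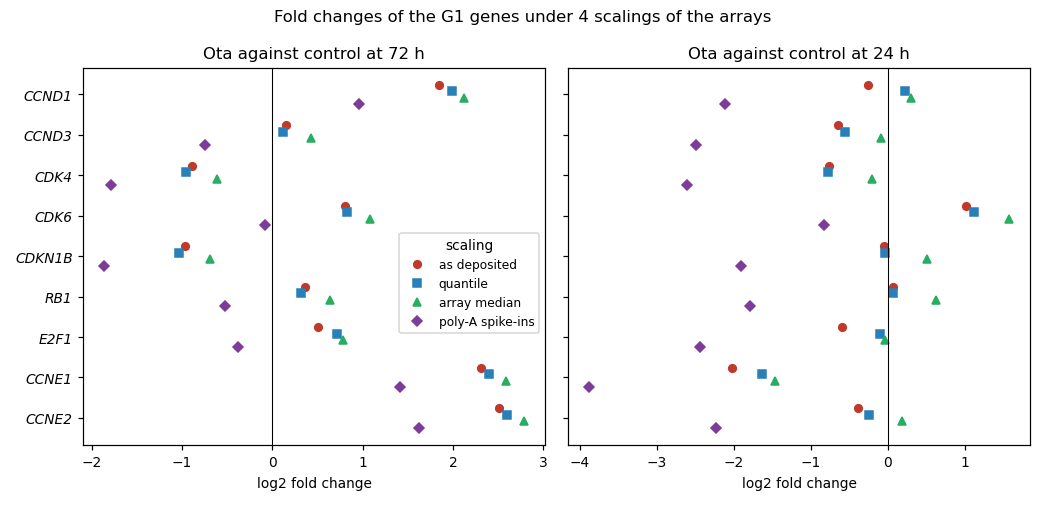
Log2 fold change (horizontal axis) of the 9 genes for Ota against control at 72 h and 24 h under 4 scalings of the arrays, marked by colour and symbol. CCND1, CCNE1 and CCNE2 stay above 0 at 72 h under each scaling, while CDK6 reads -0.09 at 72 h and -0.83 at 24 h with scaling to the spike-ins.

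Of 47 other genes of the G1 pathway, 41 were measured. At 72 h 19 of them rose, 8 fell and 14 did not pass (median 0.48), so 46.3% rose and 19.5% fell, beside 24.8% and 35.2% of all genes. At 24 h 11 rose, 15 fell and 15 did not pass (median -0.14), so 26.8% rose and 36.6% fell, beside 20.8% and 40.5% of all genes. Scaled to the spike-ins, 6 rose and 17 fell at 72 h and all 41 fell at 24 h. With that scaling 10035 of the 10729 genes tested fell at 24 h. At 72 h 7273 of them passed, 7.63% of those as rises. The largest rises at 72 h were those of CDC25A, the phosphatase that activates CDK2 (3.44 ± 0.25), E2F8, a repressor of the E2F family (2.51 ± 0.31), and CDKN1A, the inhibitor p21 (2.17 ± 0.19). The largest falls there were those of LIN37, a subunit of the DREAM repressor complex (-3.15 ± 0.27), FBXO4, a ubiquitin ligase subunit linked to cyclin D1 turnover (-2.65 ± 0.22), and CCNH, the cyclin partner of the activating kinase CDK7 (-2.58 ± 0.20). Each of these 6 had a limma adjusted p of at most 3.12e-05. CDC25A averaged 7.57 with Ota and 4.13 in control cells at 72 h, the latter close to the filter value of 4, and 6.95 and 6.28 at 24 h. E2F8 averaged 7.86 with Ota and 5.36 in control cells at 72 h, and 7.92 and 7.96 at 24 h. For CDKN1A the means were 10.88 and 8.71 at 72 h, and 8.88 and 8.28 at 24 h.

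At 24 h CCNH (-3.53 ± 0.20), the third D-type cyclin CCND2 (-3.51 ± 0.37) and the repressor E2F7 (-3.34 ± 0.45) fell most. LIN52, another DREAM subunit (1.09 ± 0.19), FBXW7, the ubiquitin ligase subunit that recognises cyclin E (0.94 ± 0.19), and CDKN1C, the inhibitor p57 (0.93 ± 0.37), rose most. The count of 11 rises was 6 without replicate 1 of Ota, 7 without replicate 3 of Ota or replicate 2 or 3 of the controls at 24 h, and 20 after centring. Among all genes called at 24 h, rises made up 34.0% as deposited and 61.9% after centring. For the difference between the times, E2F7 (4.04 ± 0.64) and CDK2, the kinase of the E-type cyclins (3.72 ± 0.40), were most positive and CDK7 (-1.55 ± 0.29) and CDKN1C (-1.47 ± 0.52) most negative, among 22 genes (53.7%) called in the positive and 5 (12.2%) in the negative direction, beside 29.6% and 19.9% of all genes. The 5 were 3 without replicate 1 of Ota at 24 h, replicate 1 or 3 of Ota at 72 h, replicate 2 or 3 of the 24 h controls or replicate 2 of the 72 h controls. In control cells at 72 h against 24 h, 18 of the 41 (43.9%, beside 13.3% of all genes) fell, led by E2F8 (-2.60 ± 0.31) and MYBL2, a factor of the cell cycle programme (-2.57 ± 0.21), and 3 rose, CDK7 (1.41 ± 0.20) and CCNH (0.61 ± 0.20) the most. Without replicate 1 or 2 of the 72 h controls, 1 of the 41 rose.

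Genes known as E2F targets, mainly in DNA replication, are downstream of the step where RB1 acts, and 37 of 40 were measured. At 72 h 18 rose, 5 fell and 14 did not pass (median 0.55). That made 48.6% rises and 13.5% falls, beside 24.8% and 35.2% of all genes, whose median was -0.11. At 24 h none rose, 25 fell and 12 did not pass (median -1.11), while 2 were higher at an unadjusted p under 0.05 in limma. The falls made up 67.6% of the list, beside 40.5% of all genes. The difference between the times was positive for 32, negative for 1 and not called for 4 (median 1.60), so 86.5% were called positive, beside 29.6% of all genes. In control cells, 34 of the 37 fell at 72 h against 24 h and none rose, at an unadjusted p under 0.05 in limma either (median -1.43), where 13.3% of all genes fell and the median of all genes was 0.00.

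MCM10 (3.73 ± 0.20) and ORC1 (2.13 ± 0.28), both needed to start replication, and CDC45, part of the replicative helicase (2.01 ± 0.18), rose most at 72 h. MCM10 averaged 4.18 in control cells at 72 h, close to the filter value of 4. The thymidine kinase gene TK1 (-2.02 ± 0.28), the DNA polymerase alpha subunit gene POLA2 (-1.36 ± 0.22) and GINS2, another helicase subunit gene (-1.03 ± 0.23), fell most there. At 24 h CHEK1, a checkpoint kinase (-4.45 ± 0.25), POLA2 (-3.33 ± 0.22) and CDC6, a helicase loader (-2.40 ± 0.41), fell most. CDC45 (3.88 ± 0.26) and CHEK1 (3.46 ± 0.35) had the most positive difference between the times, and TK1 the 1 negative difference called (-1.21 ± 0.39), a call lost without replicate 1 of Ota or replicate 2 of the controls at 72 h. Among control cells MCM10 (-3.19 ± 0.20) and UHRF1, which helps to maintain DNA methylation at replication (-2.84 ± 0.17), were lowest at 72 h relative to 24 h. Centring changed the 24 h count to 7 rises and 21 falls, where rises made up 61.9% of the 7522 calls among all genes. Scaling to the spike-ins gave 4 rises and 11 falls at 72 h and 37 falls at 24 h. With that scaling 10035 of the 10729 genes tested fell at 24 h, and 7.63% of the 7273 calls at 72 h were rises.

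**Figure D5:**
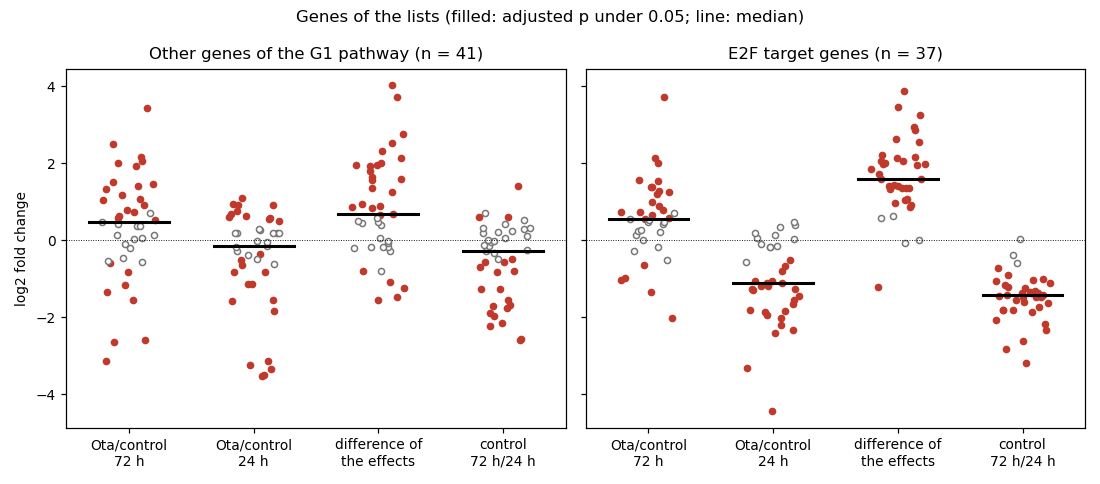
Log2 fold change (vertical axis) of the 41 other G1 pathway genes and the 37 E2F target genes in each comparison (horizontal axis), with filled points for an adjusted p under 0.05 and a line at the median. The E2F target genes have medians of 0.55 for Ota against control at 72 h, -1.11 at 24 h and -1.43 for control cells at 72 h against 24 h.

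Over the 12 arrays, the tested genes whose values followed each G1 gene most closely (Pearson's r, as a description of arrays that share 4 groups and the array-wide shift) were as follows. CCNE1 was closest to FEN1 (0.982), a nuclease of DNA replication, and to SLC20A1 (0.976), and CCNE2 to DTL (0.977), which directs replication licensing proteins to degradation, and BRI3BP (0.965). E2F1 was closest to PRRC2A (0.932) and CLSPN (0.871), which acts in the replication checkpoint. CCND1 had SCAMP4 (0.945) and UBASH3B (0.919) as its nearest genes, and CCND3 had LRRC8B (0.862) and MAP2K1 (0.858). CDK4 was nearest to PSMB9 (0.971) and MED16 (0.967), CDK6 to TAGLN (0.953) and ZNF493 (0.948), CDKN1B to PTPRM (0.979) and HSD17B11 (0.958), and RB1 to EHHADH (0.927) and SKAP2 (0.886).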

How the data were processed

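The values were made by the authors: log2 GCRMA expression per probe set, deposited as a table of 54675 probe sets on 12 arrays. The method is given as GCRMA, per the submitters' processing notes. Its version and the arrays normalized together are not given in the sources used here. Groups follow the labels. Of the probe sets 62 were Affymetrix controls. The platform annotation, which can be old, named 1 gene for 41097 probe sets, more than 1 for 1801 and no gene for 11777. By gene identifier, 41037 of the first kind (controls left out) matched a current record, and 0 symbols were updated.

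Probe sets with 1 symbol were kept where 3 or more arrays had a value over 4, and the probe set with the highest mean stood for its gene. This left 10729 genes. Of the 21 probe sets of the G1 genes 15 were kept, and the other 6 had values of 2.07 to 4.39. The linear model held the means of the 4 groups (limma 3.58.1, R 4.3.3, 8 residual and 3.56 prior degrees of freedom). It gave two-sided tests and Benjamini-Hochberg adjustment over all genes at 0.05. A second fit covered the 19401 kept probe sets with 1 symbol. The number of arrays limits the precision: the median SE of the 72 h contrast was 0.21.

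All 9 measured genes are named. From the other G1 pathway genes and the E2F targets, up to 3 genes with the largest change in each direction among those past the threshold were named for each Ota comparison and up to 2 for the other comparisons, and for each of the 9 genes the 2 with the highest r. The members, lists and tests were chosen with earlier results of these data known. Promoter sequences came from RefSeq (GRCh38.p14).

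Equal replicate numbers were checked for pairing by correlating deviations from the group means. At 24 h r was 0.12, 0.23 and 0.27, so the numbers pair Ota and control arrays there by the rule that each r exceeds 0.1. At 72 h r was -0.05, 0.14 and 0.19, and for control cells over time it was 0.22, 0.08 and 0.17, so they do not. Among the alternatives was the replicate number as a block, beside other scalings, filters, probe set choices, variance models, thresholds, the 6 arrays alone, and each array left out. The fit was tested on simulated data for Ota against control at 72 h, with 200 of 10729 genes changed: it recovered 12%, 62%, 94% and 100% of 50 genes each at log2 changes of 0.5, 1, 2 and 4, and 6.29% of its calls were unchanged genes. The simulated noise was independent between genes and held no array-wide shift. In the data 60.1% of genes passed at that time, so these rates describe the simulation and may not hold for the data.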

Additional observations from a re-analysis of the deposited data

Results flagged for a closer look

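For 6 of the 9 genes the effect of Ota differed between 72 h and 24 h in limma's contrast of the 2 effects. The contrast is the effect at 72 h minus the effect at 24 h, on the log2 scale. Over all genes tested, 49.5% passed it, 29.6% in the positive and 19.9% in the negative direction. CCNE1 differed by 4.34, with a change of 2.31 at 72 h and of -2.03 at 24 h. CCNE2 differed by 2.89, CCND1 by 2.11, E2F1 by 1.10 and CCND3 by 0.80. The second CCND1 probe set differed by only -0.09 and was not called, and the CCND3 call was lost in 11 of the 12 fits that left out 1 array. The E2F1 call was lost after quantile normalization (limma adjusted p 0.0683) or centring (limma adjusted p 0.0662). CDKN1B differed by -0.91, with a change of -0.97 at 72 h and of -0.05 at 24 h. Its difference was 0.047 with scaling to the spike-ins, and its call was lost in 2 of the 12 fits that left out 1 array.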

How the results depend on the processing

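Leaving out single arrays aside, 388 of 455 recomputed values for single genes kept their sign and side of the threshold, 29 lost their call with the sign kept, 21 gained one and 17 changed sign. With single arrays left out 400 of 432 kept both, 19 lost a call, 6 gained one and 7 changed sign. The cause of these changes was not tested. Scaling to the spike-ins reversed CCND3 at 72 h (-0.74), CDK6 at 72 h (-0.086) and 24 h (-0.83), RB1 at 24 h (-1.79) and the difference between times for CDKN1B (0.047), and centring reversed CDKN1B at 24 h (0.51), each called before or after. Values called in neither case also changed sign. With the spike-ins these were E2F1 (-0.38) and RB1 (-0.53) at 72 h and the difference between times for CDK4 (0.83) and CDK6 (0.75). At 24 h they were CCND1 with quantile normalization (0.22), centring (0.30) and the mean over probe sets (0.36), CCNE2 with centring (0.18) and CDKN1B with array weights (0.044). The mean over probe sets also turned the difference for CDK6 (0.0013) and RB1 in control cells over time (0.12). With single arrays left out, uncalled values crossed 0 for CCND3 at 72 h (-0.13 to 0.38), CCND1 (-0.50 to 0.018), CDKN1B (-0.17 to 0.099) and RB1 (-0.036 to 0.16) at 24 h, and the difference for CDK4 (-0.39 to 0.064). Scaling to the spike-ins also called 9 of the 9 genes and 10187 of all genes at 24 h, and 1280 of all genes between control cells at 72 h and 24 h, where the deposited values gave 5, 6579 and 2739. For that last comparison array weights called 5 of the 9 genes, against 3, and 5434 of all genes, its 6 arrays alone called 4309, an adjusted p under 0.01 called 1547 and a log2 change of at least 1 called 1210. The stricter p left 3 of the 9 genes at 24 h, against 5, and 3 in the contrast of the 2 effects, against 6. Counts of all genes at that p are not given here for these 2 comparisons, so the losses cannot be set against them. The minimum change left 3 of the 9 genes at 72 h, against 6, and 2 at 24 h, with 3994 and 4040 of all genes. Leaving out single arrays gave 3 to 5 of the 9 genes at 24 h, with 3 without replicate 2 of the controls at 24 h. Over these fits 5870 to 6648 of all genes were called at 24 h. With the replicate number as a block, no call of the 9 genes changed (6 at 72 h, 5 at 24 h), and 6661 of all genes were called at 72 h and 6762 at 24 h. The counts of the 2 lists under other scalings and with single arrays left out were chosen after seeing the data. With 3 arrays a group, small changes are often missed.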

Other observations

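The probe sets under the filter on low values were not tested. One of them, a second E2F1 probe set, read 3.02, 3.17 and 3.42 in Ota-treated cells and 3.01, 3.01 and 3.02 in control cells at 72 h, and 3.01, 3.02 and 3.00 in Ota-treated cells and 4.39, 3.13 and 3.46 in control cells at 24 h. A CDK6 probe set under the filter read 3.18, 3.27 and 3.27 in Ota-treated cells and 2.51, 2.52 and 2.54 in control cells at 24 h. Both were chosen after their values were seen.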
